A study of Drosophila melanogaster with 8 samples.

Results

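The genes described here make or carry the eye pigments of Drosophila melanogaster. The set was chosen by function: 3 ABC transporters (w, bw and st), 2 enzymes of ommochrome synthesis (v and cn) and 5 enzymes of pteridine synthesis or of pathways tied to it (se, Hn, Pu, pr and ry). A probe set, the group of short oligonucleotides that reports 1 transcript on an Affymetrix array, was taken for a member only when the platform annotation gave it that symbol and no other. By that rule 7 of the 10 genes had a probe set, out of 11982 genes in the whole data set, and bw had 2, which makes 8 probe sets. w, v and Hn were not analysed here. The flies, Canton-S wild type, were 3 to 5 days old and had been kept at 25 °C for 4 days with 12 h of light per day. One group of 4 samples received 30 min of saturating light starting at ZT 15, that is 3 h after lights off, and was frozen 1 h after the pulse, at ZT 16.5. The other group of 4 samples is titled unpulsed and carries the same sampling time, ZT 16.5, in its labels. Its treatment protocol repeats that of the pulsed samples, so the absence of a pulse is read from the sample titles. Both groups share the strain, the light schedule and the tissue, total RNA of whole heads, and the comparison asks how transcripts of the head differ after light in the early night.

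The red and brown colours of the fly eye come from separate pathways. Drosopterins, the red pteridines, are built from GTP, and xanthommatin, the brown ommochrome, is built from tryptophan through kynurenine. Half-size ABC transporters load precursors into pigment granules, and the product of w pairs with that of bw for the pteridine route and with that of st for the ommochrome route. Most pigment is laid down in the pupa, and the screening pigment shields the photoreceptors from stray light in the adult. Pteridine synthesis also yields tetrahydrobiopterin, the cofactor of the hydroxylases that make dopamine and serotonin.

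Each value below is the deposited log2 value of 1 probe set on 1 array, and each difference is pulsed minus unpulsed on the log2 scale. Levels of different probe sets are not compared with each other, since probes differ in how brightly they report the same amount of RNA. The medians of the 8 arrays lay between 2.94 and 3.05, and precision is limited by there being 4 arrays per group. Pulsed replicate 2 stood apart. Its correlation with the other arrays, across probe sets, was 0.985 to 0.988, where the others correlated with each other at 0.995 or more, and the mean of 6 male reproductive tract markers was 7.44 on it against 2.39 to 2.51 on the rest. The mean of 5 gut markers was 6.23 on that array and 2.82 to 3.01 on the others. The yolk protein gene Yp1 was at 4.82 to 5.21 on pulsed replicates 3 and 4 and unpulsed replicate 1. On the remaining arrays of both groups it was at 11.34 to 12.68. Whether the replicates are separate collections of flies is not stated in the labels, so intervals and p-values measure the spread between these samples, which may be partly technical. Photoreceptor markers were present on every array, with a mean over 6 genes between 12.49 and 12.79. In whole heads, fewer cells of a type and less RNA per cell cannot be told apart.

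None of the pigment genes passed the test between pulsed and unpulsed heads. With limma and Benjamini-Hochberg adjustment over 18769 probe sets, 0 of the 8 member probe sets had an adjusted p under 0.05, and 0% of all probe sets did. At an unadjusted p under 0.05 there was 1 of 8, a probe set of bw with a lower value in pulsed heads, where 4.81% of all probe sets met that threshold in either direction and 2.41% with a lower value. The pulsed and unpulsed arrays overlapped for all 8 probe sets, and 2.56% of all probe sets had groups that did not overlap. With 1 probe set per gene, 5 of 7 genes had a negative difference, against 53.2% of all genes measured. The median difference was -0.0095 over the 7 genes, which is the value of cn, a gene at the floor of the scale, and -0.0014 over all genes. Without cn, left out after its values were seen, 4 of 6 genes had a negative difference and the median was -0.078.

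**Figure D1:**
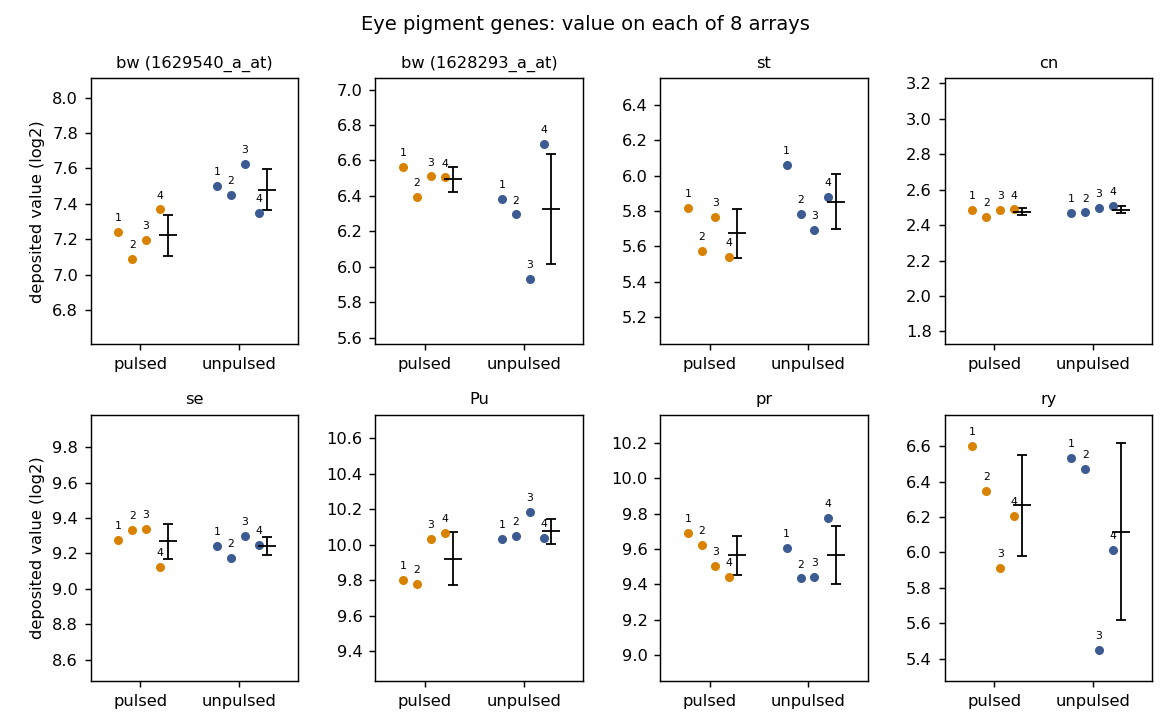
Deposited log2 value of each pigment gene probe set on each array, pulsed (orange) and unpulsed (blue), with the replicate number beside each point. Bars show the mean and SD of 4 arrays, every panel spans the same number of log2 units, and the groups overlap in all 8 panels.

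The transporter gene bw (brown) serves the pteridine side, and its loss leaves the eye brown. Its probe set with the higher mean, 1629540_a_at, was at 7.24, 7.09, 7.20 and 7.37 on the pulsed arrays, in the order of replicates 1 to 4. The unpulsed arrays were at 7.50, 7.45, 7.63 and 7.35. The pulsed array was the lower one in 15 of the 16 pairs of a pulsed and an unpulsed array, and the exception was pulsed replicate 4 against unpulsed replicate 4. Means were 7.22 ± 0.12 (SD, n = 4) in pulsed and 7.48 ± 0.12 (SD, n = 4) in unpulsed heads. The difference was -0.26 (SE 0.076), or -16.4% on the linear scale, with a 95% interval from -26.2% to -5.18%. limma gave an unadjusted p of 0.0120 and an adjusted p of 0.870. Without pulsed replicate 2 the difference was -0.21. With the 3′ minus 5′ difference of control transcripts as a covariate it was -0.088 and limma's unadjusted p was 0.372. That covariate nearly separates the groups, so this fit cannot tell its part from that of the pulse.

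The other bw probe set, 1628293_a_at, had the opposite sign. It was at 6.56, 6.40, 6.51 and 6.50 on the pulsed arrays and at 6.38, 6.30, 5.93 and 6.69 on the unpulsed ones. The pulsed values lay inside the unpulsed range, which was wide because replicate 3 was low and replicate 4 high. The difference was 0.17 (SE 0.15), with an interval from -12.0% to 43.4% and a limma adjusted p of 1.00. It was 0.20 without pulsed replicate 2 and 0.037 without unpulsed replicate 3. In the annotation both probe sets belong to bw alone, and their ending (_a_at) is the manufacturer's mark for probes shared by alternative transcripts of 1 gene.

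The difference between both bw probe sets on an array carries the fixed difference in brightness of their probes, so only its variation between arrays is read here. 1629540_a_at minus 1628293_a_at was 0.68, 0.69, 0.69 and 0.86 on the pulsed arrays and 1.12, 1.16, 1.69 and 0.65 on the unpulsed ones. The pulsed arrays sat close together, and 3 of the 4 unpulsed arrays lay above all of them while unpulsed replicate 4 lay below. Permuting the group labels over all 70 arrangements (exact test, two-sided, chosen after these values were seen) gave p = 0.143 for the difference in means of -0.43. When limma weighted the arrays by their quality, both bw probe sets passed, in opposite directions, at -0.23 (adjusted p = 0.0131) and 0.21 (adjusted p = 0.0274). That fit called 2936 probe sets and rested mostly on 1 array of each group, pulsed replicate 3 (weight 6.81) and unpulsed replicate 2 (weight 10.1), so it is close to a comparison of those arrays. With all 8 arrays weighted equally and no covariate, the sign of the bw difference depends on which probe set is read.

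**Figure D2:**
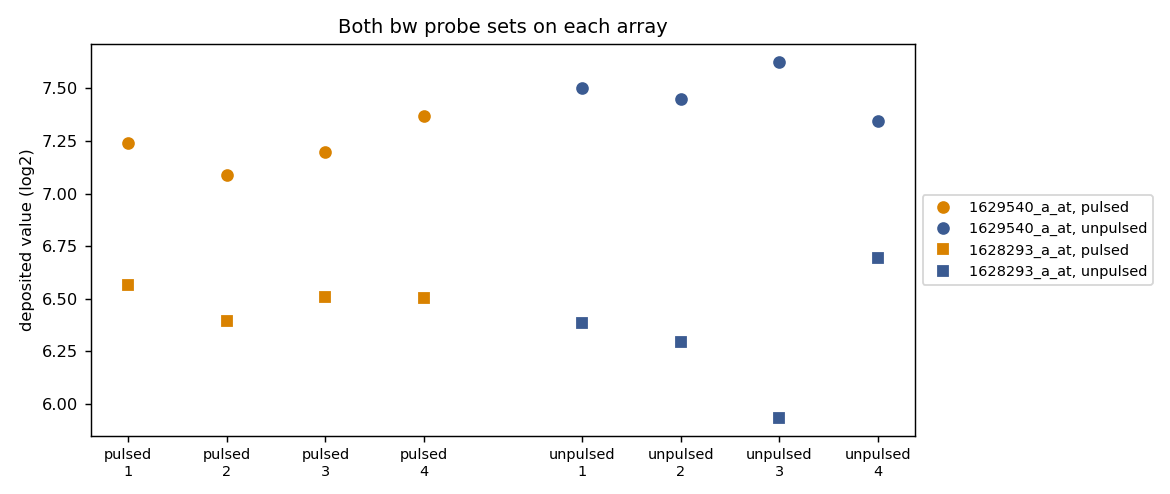
Both bw probe sets on each of the 8 arrays (deposited log2 value). The circles, 1629540_a_at, are mostly lower on pulsed arrays (orange), the squares, 1628293_a_at, are not, and on unpulsed replicate 3 the circle is at its highest and the square at its lowest.

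The transporter gene st (scarlet) serves the ommochrome side, and its loss removes the brown pigment. It was at 5.82, 5.58, 5.76 and 5.54 in pulsed heads and at 6.06, 5.78, 5.69 and 5.88 in unpulsed heads. The pulsed array was lower in 13 of 16 pairs, and the highest pulsed values lay within the unpulsed range. The difference was -0.18 (SE 0.097), with an interval from -24.6% to 3.48% and a limma adjusted p of 1.00. It was -0.15 without pulsed replicate 2, -0.11 without unpulsed replicate 1, the array with the highest value, and -0.057 with array weights. It was larger in size without unpulsed replicate 3 (-0.23), with quantile normalization (-0.19) and with the 3′ minus 5′ covariate. With that covariate it was -0.41 (limma unadjusted p = 0.00753, adjusted p = 0.994).

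Marker lists of photoreceptors, glia and neurons were set beside the transporters, and markers of the pigment cells were not analysed here. Of 6 photoreceptor markers with a probe set of their own, out of 13 listed, 4 had a negative difference, with a median of -0.081. Their mean per array ran from 12.49 to 12.70 in the pulsed group and from 12.51 to 12.79 in the unpulsed group, and 0 of 6 met an unadjusted p under 0.05. Of 3 glia markers, out of 4 listed, 2 had a negative difference, with a median of -0.044. Their mean per array ran from 9.649 to 9.753 in the pulsed group and from 9.748 to 9.920 in the unpulsed group. Among the glia markers nrv2, which encodes a beta subunit of the sodium pump, was at -0.37 (SE 0.12), with a limma adjusted p of 0.920. Its groups did not overlap, which held for 368 of 11982 genes measured with 1 probe set per gene. The remaining glia markers, repo and moody, were at -0.044 (SE 0.053) and 0.015 (SE 0.082). Of 3 neuron markers, out of 4 listed, 1 had a negative difference, and elav was at -0.25 and nSyb at 0.20. The median of 0.063 is the value of brp, whose probe set had a low mean of 4.02. The neuron mean per array ran from 7.39 to 7.69 in the pulsed group and from 7.35 to 7.77 in the unpulsed group. The part of these cells in the transporter values was not tested.

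The 3′ minus 5′ log2 difference of control transcripts reflects RNA integrity and labelling. The pulsed minus unpulsed difference of this quantity was -0.12 for actin (exact permutation p = 0.429) and -0.32 for eIF4a (exact permutation p = 0.0571). For GAPDH it was at 0.857 ± 0.062 (SD, n = 4) in pulsed and 1.03 ± 0.054 (SD, n = 4) in unpulsed heads (exact permutation p = 0.0286, which is the lower limit with 70 arrangements, and 0.0857 after adjustment over 3 controls). The mean of the 3 controls averaged 1.68 over the pulsed arrays and 1.89 over the unpulsed arrays (p = 0.0571 by the same exact test). By array, this mean ran from 1.63 to 1.79 in the pulsed and from 1.77 to 2.01 in the unpulsed group. The groups nearly separate on it, so a fit with it as a covariate cannot tell its part from that of the pulse. With that mean as a covariate both probe sets of bw were negative, at -0.088 and -0.14, and st was at -0.41. limma's adjusted p was 0.994 for each of them.

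cn (cinnabar) encodes kynurenine 3-monooxygenase, which makes the 3-hydroxykynurenine from which xanthommatin is formed. It was at 2.48, 2.45, 2.49 and 2.49 in pulsed heads and at 2.47, 2.47, 2.50 and 2.51 in unpulsed heads. These values lay at the floor of the deposited scale. Within 0.1 log2 units of its mean there were 2437 of the 18769 probe sets, with a median SD within groups of 0.026 against 0.078 over all probe sets. The difference of -0.0095 (SE 0.016) is therefore that of a probe set near its floor, and nothing about the cn transcript can be read from it.

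Pu (Punch) encodes GTP cyclohydrolase I, the entry step of all pteridine synthesis. Its values were 9.80, 9.78, 10.03 and 10.07 in pulsed heads and 10.03, 10.05, 10.18 and 10.04 in unpulsed heads. Pulsed replicates 1 and 2 lay below every other array, while pulsed replicates 3 and 4 lay within the unpulsed range. The pulsed mean was 9.92 ± 0.15 (SD, n = 4) and the unpulsed mean 10.08 ± 0.072 (SD, n = 4). The difference was -0.16 (SE 0.078), with an interval from -20.9% to 2.02% and a limma adjusted p of 1.00, and it was -0.11 without pulsed replicate 2. The yolk protein gene Yp1, made by female fat body, differed between the same pulsed arrays, with 11.45 and 12.53 on replicates 1 and 2 and 5.15 and 5.21 on replicates 3 and 4. Among unpulsed arrays Yp1 was at 4.82 on replicate 1 and at 11.34 to 12.68 on the others, where Pu was at 10.03 and at 10.04 to 10.18. The part of fat body RNA in the Pu values was not tested. With the mean of 3 yolk protein genes as a covariate the difference of Pu was -0.18 (limma adjusted p = 0.797). With the 3′ minus 5′ covariate it was -0.013 (limma adjusted p = 0.994), and with array weights -0.057 (limma adjusted p = 0.393).

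pr (purple) encodes 6-pyruvoyl-tetrahydropterin synthase, the step after Pu. It was at 9.69, 9.62, 9.50 and 9.44 in pulsed heads and at 9.61, 9.43, 9.44 and 9.78 in unpulsed heads. The pulsed values lay inside the unpulsed range, and the means were nearly equal, 9.56 ± 0.11 and 9.57 ± 0.16 (SD, n = 4 each). The difference was -0.0018 (SE 0.092), with an interval from -14.1% to 16.1%. Its probe set ends in _s_at, the manufacturer's mark for probes that can match transcripts of more than 1 gene, although the annotation names only pr.

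se (sepia) encodes the omega-class glutathione transferase that makes the drosopterin precursor pyrimidodiazepine. It was at 9.28, 9.33, 9.34 and 9.12 in pulsed heads and at 9.24, 9.17, 9.30 and 9.25 in unpulsed heads. The unpulsed values lay inside the pulsed range. The difference was 0.027 (SE 0.053), with an interval from -6.69% to 11.2% and a limma adjusted p of 1.00. Apart from cn, this was the narrowest interval among the members.

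ry (rosy) encodes xanthine dehydrogenase, which makes isoxanthopterin and uric acid. It varied most, at 6.60, 6.35, 5.91 and 6.20 in pulsed heads and at 6.53, 6.47, 5.45 and 6.01 in unpulsed heads. Unpulsed replicate 3 was the lowest of the 8 arrays and pulsed replicate 1 the highest. The SD within groups was 0.41, larger than that of 97.4% of all probe sets. The difference of 0.15 (SE 0.27) had an interval from -28.5% to 71.9% and a limma adjusted p of 1.00, and it was 0.12 without pulsed replicate 2 and -0.073 without unpulsed replicate 3. The fat body gene Lsp2, a storage protein gene, was at 13.86 on unpulsed replicate 3 and at 14.69 to 14.95 on the other arrays, and its part in the ry value was not tested.

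Unpulsed replicate 3 also held the highest value of Pu and of bw 1629540_a_at and the lowest of bw 1628293_a_at. Of the 16 highest and lowest values of the 8 probe sets, 4 fell on that array, 3 each on pulsed replicate 2 and unpulsed replicate 4, and 1 or 2 on each of the others.

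**Figure D3:**
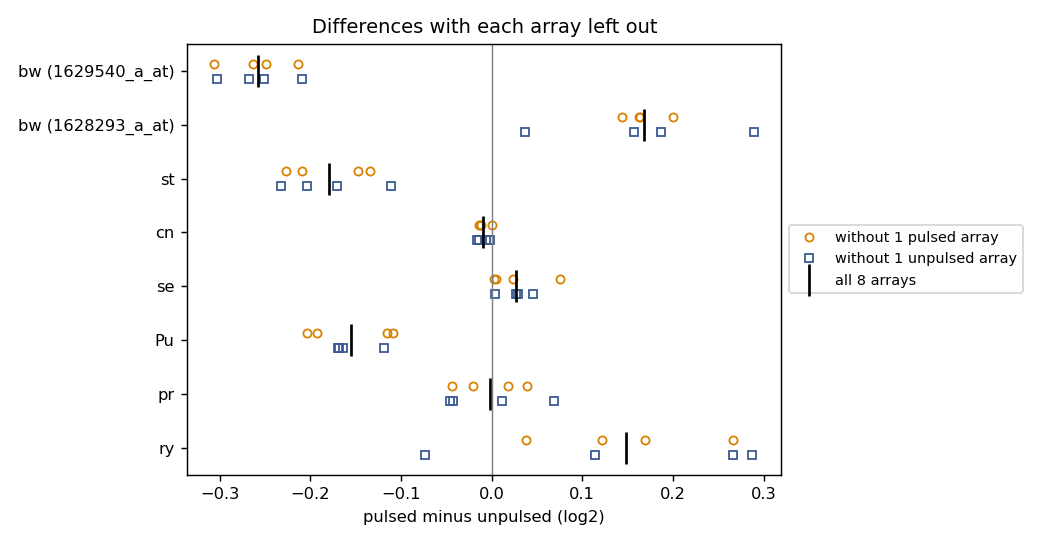
Pulsed minus unpulsed log2 difference of each probe set with all 8 arrays (black bar) and with each pulsed (circle) or unpulsed (square) array left out. bw 1629540_a_at, st and Pu stay negative in every case. pr, ry and, at the floor of the scale, cn lie on both sides of 0, and ry is at -0.073 without unpulsed replicate 3.

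Other genes of the same pathways were read from a list drawn up with earlier results of these data known. Of 14 other ommochrome and pteridine genes 11 had a probe set of their own. Of these 11, 7 had a negative and 4 a positive difference, with a median of -0.036, and 0 passed the limma threshold after adjustment. The ommochrome branch held the gene whose groups did not overlap. Kyat encodes kynurenine aminotransferase, which diverts kynurenine to kynurenic acid and so away from the pigment. It was at 8.42, 8.40, 8.27 and 8.20 in pulsed heads and at 8.10, 8.15, 8.14 and 8.12 in unpulsed heads. All 4 pulsed arrays lay above all 4 unpulsed arrays. With 1 probe set per gene, the groups did not overlap in either direction for 1 of these 11 genes and for 368 of 11982 genes measured. The difference was 0.20 (SE 0.051), with an interval from 5.52% to 24.7% and a limma adjusted p of 0.818, so it did not pass. Without pulsed replicate 2 it was 0.17 (limma adjusted p = 1.00). With the 3′ minus 5′ covariate it was 0.16 (SE 0.083), and limma's unadjusted p was 0.0992, against 0.00602 without that covariate. With array weights it was 0.15 and passed (limma adjusted p = 0.0347), in the fit that called 2936 probe sets and rested mostly on 1 array of each group. The adjusted p of Kyat ranged from 0.0347 to 1.00 over its alternatives. Its probe set, like that of pr, ends in _s_at. KFase, the formylkynurenine formamidase of the preceding step, was at 0.059 (SE 0.079). cd, a peroxidase gene needed for xanthommatin, was at -0.12 (SE 0.087), and kar, of the monocarboxylate transporter family, at -0.14 (SE 0.10).

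On the pteridine side, 5 of 7 genes had a negative difference, between -0.088 and 0.15, and 0 met an unadjusted p under 0.05. The differences were -0.088 (SE 0.087) for Sptr, the sepiapterin reductase gene, and 0.071 (SE 0.063) for cl (clot), which acts with se in drosopterin synthesis. The tetrahydrobiopterin recycling genes Dhpr and Pcd were at -0.026 and -0.078, and the dihydropterin deaminase gene DhpD at -0.036. mal, whose product activates the molybdenum cofactor of the ry enzyme, was at 0.15 (SE 0.11), and Mocs1, of the synthesis of that cofactor, at -0.087 (SE 0.16).

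**Figure D4:**
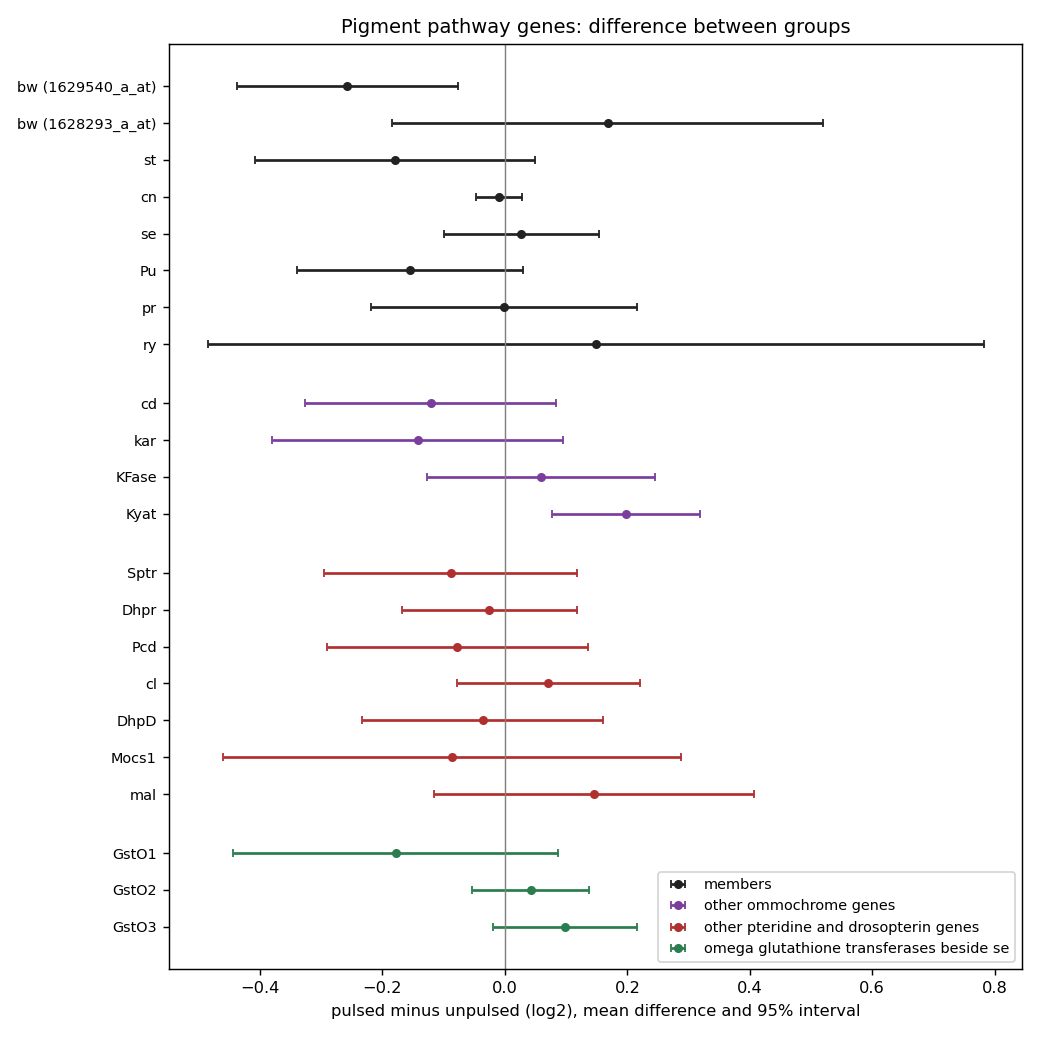
Pulsed minus unpulsed log2 difference with its 95% interval for the 8 member probe sets and for other genes of the ommochrome and pteridine pathways and the omega-class glutathione transferases. The intervals of bw 1629540_a_at and Kyat leave out 0 on opposite sides, before any adjustment for the number of probe sets tested.

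Genes of the same family as a member, genes tied to tetrahydrobiopterin and genes of pigment granule traffic were read beside the members. Of 12 other genes of the ABCG transporter family, to which w, bw and st belong, 4 had a negative and 8 a positive difference, with a median of 0.029. Atet was at -0.26 (SE 0.094), with a limma adjusted p of 0.965, and CG5853 at 0.26 (SE 0.11), with an adjusted p of 1.00. Of 3 omega-class glutathione transferase genes related to se, GstO1 was at -0.18 (SE 0.11), GstO2 at 0.043 (SE 0.040) and GstO3 at 0.098 (SE 0.049). Of the genes whose enzymes use tetrahydrobiopterin, ple, the tyrosine hydroxylase gene, was at -0.10 (SE 0.17) and Nos, the nitric oxide synthase gene, at -0.26 (SE 0.16). Of 9 genes for the traffic of pigment granules, 6 had a negative and 3 a positive difference, with a median of -0.10. Over all genes measured, 53.2% had a negative difference. The lowest of the 9 was lt, of the HOPS tethering complex, at -0.22 (SE 0.12), and the highest was cm at 0.14 (SE 0.068). In these 4 lists 0 genes passed the limma threshold after adjustment.

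The genes whose profile over the 8 arrays was most like those of the transporters were found by the root mean square difference of profiles scaled to a mean of 0 and an SD of 1, among 8385 genes above the 40th percentile of mean value. For bw 1629540_a_at these were her (0.278 SD units) and Mnr (0.291). her was dim, with a mean of 3.30 where the array medians lay between 2.94 and 3.05, and Mnr spanned 0.19 log2 units over the 8 arrays. For st they were botv (0.206) and Dh31-R (0.313). With 8 arrays and so many candidates, close profiles are to be found for any gene, and these names describe these arrays only.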

How the data were processed

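Per the labels' protocols, total RNA was taken from fly heads with Trizol and labelled with the Affymetrix IVT kit (biotin). The authors deposited 1 table of log2 values, with 18952 probe sets on 8 arrays. The scale was read from the values, whose highest is 15.5, and the probe summary, background correction and normalization are not given in the sources used here. These deposited log2 values entered the tests without further scaling. Control probe sets (183) were left out.

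Symbols came from the platform annotation (13647 probe sets with 1 symbol, 402 with several, 4903 not listed), and 13544 were updated through gene numbers in the RefSeq table of Release 6 plus ISO1 MT, used for names only. Groups and replicate numbers came from the sample titles. The groups were compared by limma 3.58.1 under R 4.3.3 (lmFit, eBayes, two-sided, Benjamini-Hochberg adjustment over 18769 probe sets, threshold 0.05), with 95% intervals from the moderated statistic. Percent differences are the log2 differences put on a linear scale. A gene with several probe sets was represented by that with the highest mean. The fit was tested on simulated data with known changes. It recovered 50.8% of changes of 0.5 log2 and 87.8% of changes of 1 log2, and 93.45% of its intervals held the true value. These rates are for changes placed among 18769 simulated probe sets. Member probe sets other than cn had an SD within groups above that of 50.7% to 97.4% of all probe sets, and their own rate was not tested. All member differences were smaller than 0.5 log2, so changes of their size could be missed.

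Members and lists were chosen with earlier results of these data known. Named are all members, and from the other lists the genes whose values bear on them; the transporters' nearest profiles followed a fixed rule. Alternatives were a filter below the 40th percentile of mean value, centring each array on its median, quantile normalization, adding 16 to linear values before log2, weighting arrays, a robust spread with a trend, a block for the replicate number, covariates for the 3′ minus 5′ controls and for yolk protein genes, averaged probe sets per gene, and each array left out. Leaving out cn was added after seeing the data.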

Additional observations from a re-analysis of the deposited data

Results flagged for a closer look

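In a group of 4, an array was marked when its gap to the nearest other value, divided by the group's range, was above Dixon's 95% critical value. Of 104 groups tested, over members, related genes and marker lists, 7 were marked, and chance marks about 5% of groups of independent samples. Among the members, cn was at 2.45 on pulsed replicate 2 and at 2.48 to 2.49 on the other pulsed arrays, all at the floor of the scale. Pu was at 10.18 on unpulsed replicate 3 and at 10.03 to 10.05 on the other unpulsed arrays.

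Among related genes, the ABCG transporter gene CG9664 was at 6.31 on unpulsed replicate 3, which is 0.69 below the nearest of the other unpulsed arrays. Another of that family, CG17646, was at 8.27 on pulsed replicate 1 and at 8.01 to 8.04 on the other pulsed arrays. The tyrosine hydroxylase gene ple was at 3.92 on unpulsed replicate 1 and at 3.44 to 3.50 on the others. The mean of male tract markers was 7.44 on pulsed replicate 2 against 2.41 to 2.42 on the other pulsed arrays, and that of gut markers 6.23 against 2.83 to 2.97. The part of that RNA in the members' values was not tested, and the differences without that array stand beside each member in the report or, for cn, se and pr, were 0.00033, 0.0049 and -0.021.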

How the results depend on the processing

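Of 135 differences of member probe sets under alternatives, 120 kept their direction and their side of the threshold, 13 turned direction and 2 passed the threshold; cn has no value under the filter on dim probe sets, which removed it. With array weights, which rested mostly on unpulsed replicate 2 (weight 10.1) and pulsed replicate 3 (6.81), 2936 of all probe sets passed, among them 2 member probe sets, bw 1629540_a_at at -0.23 (limma adjusted p = 0.0131, in a range up to 1.00 over its alternatives) and bw 1628293_a_at at 0.21 (0.0274, likewise), and cn (0.012), pr (0.077) and ry (-0.37) turned direction, while st and Pu were both at -0.057. With the 3′ minus 5′ covariate bw 1628293_a_at (-0.14), se (-0.047) and ry (-0.18) turned direction, Pu was at -0.013, and with the yolk protein covariate pr was at 0.010. The cause of these shifts was not tested.

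With arrays left out in turn, bw 1629540_a_at ran from -0.31 to -0.21, bw 1628293_a_at from 0.037 to 0.29, st from -0.23 to -0.11, cn from -0.016 to 0.00033, se from 0.0025 to 0.075, Pu from -0.20 to -0.11, pr from -0.046 to 0.069 and ry from -0.073 to 0.29. The members at an unadjusted p under 0.05 numbered 1 to 2 over these fits, 2 with quantile normalization (bw 1629540_a_at and st), 2 with the yolk protein covariate (bw 1629540_a_at and Pu) and 3 with array weights (both of bw, and se). With the 3′ minus 5′ covariate the 2 were st (-0.41) and pr (-0.23), and bw 1629540_a_at no longer met that threshold (-0.088, limma unadjusted p = 0.372). Without pulsed replicate 4 the second was Pu (-0.20), and without unpulsed replicate 4 it was bw 1628293_a_at (0.29). Of all probe sets, 1 passed with median-centred arrays, with the filter and with the trended spread, and 0 with any array left out. The members' median ran from -0.073 to -0.0020 with arrays left out and was -0.057 with array weights, -0.078 with the filter or without cn and -0.088 with the 3′ minus 5′ covariate.

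Same-numbered arrays of both groups did not deviate together across all probe sets (correlations from -0.070 to 0.078). That gave no sign that the numbers pair the samples, and a correlation over all probe sets cannot exclude a pairing. With the replicate block 0 of all probe sets and 0 members passed, and bw 1629540_a_at was again at -0.26 (limma adjusted p = 0.919). The SE of ry was 0.11 with the block and 0.27 without it, while that of bw 1629540_a_at was 0.088 with it and 0.076 without. cn lies too near the floor for any difference to be read.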
